A study of Mus musculus with 6 samples.

Results

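The genes described here carry out mRNA decay or build ribonucleoprotein granules, the cytoplasmic assemblies of mRNA and protein. They are 53 genes picked by symbol for these roles from a table of 16423 gene symbols. Of these, 14 act in deadenylation, 3 bind poly(A), 9 act in decapping and 5′ decay, 6 in nonsense-mediated decay, 16 are stress granule and other RNA-binding proteins, and 5 are miRNA effectors. They were followed in C3H10T1/2 cells, a mouse mesenchymal stem cell line, after knockdown of Ybx1, whose product YBX1 binds mRNA through a cold-shock domain. The siYBX1 group, labelled YBX1 knockdown, had siRNAs against Ybx1, and the siNC group, labelled WT, had a control siRNA. Both groups had first been taken through the same adipogenic differentiation. This began with a cocktail of IBMX, dexamethasone, insulin, triiodothyronine, indomethacin and rosiglitazone, followed by triiodothyronine, insulin and rosiglitazone. They were transfected on day 4 and their RNA was taken 48 h later, with 3 libraries per group. The siRNA sequences and their number are not described in the labels. Whether the replicates were separate cultures is not described either, so the p-values cover the variation among these 6 libraries and it may be technical.

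Most cytoplasmic mRNA decay begins with shortening of the poly(A) tail, first by the PAN2-PAN3 complex and then by the CCR4-NOT complex, which displaces poly(A)-binding protein. The bared mRNA is decapped by DCP2 with its activators and degraded from the 5′ end by XRN1. Nonsense-mediated decay sends mRNAs with premature stop codons to the same machinery, and Argonaute and TNRC6 proteins do so for miRNA targets. Stalled mRNAs can also gather in stress granules, which G3BP proteins nucleate, and YBX1 itself is a known component of such granules.

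YBX1 is named for the Y box, an inverted CCAAT box, that it was found to bind in promoters, and the start regions of 4 members that changed are therefore shown. They come from RefSeq (GRCm38.p6), span 250 bases before to 50 bases after the annotated start, and run 5′ to 3′ on the gene's strand. Fxr1 and Igf2bp2 are the 2 members that rose, Cnot6l is the member that fell under every alternative that tested it, and Smg1 fell and holds a CCAAT box, here in capitals. The regions are chr3:34019829-34020128 (plus strand) for Fxr1, chr16:22163250-22163549 (minus strand) for Igf2bp2, chr5:96161941-96162240 (minus strand) for Cnot6l and chr7:118243588-118243887 (minus strand) for Smg1.
Fxr1: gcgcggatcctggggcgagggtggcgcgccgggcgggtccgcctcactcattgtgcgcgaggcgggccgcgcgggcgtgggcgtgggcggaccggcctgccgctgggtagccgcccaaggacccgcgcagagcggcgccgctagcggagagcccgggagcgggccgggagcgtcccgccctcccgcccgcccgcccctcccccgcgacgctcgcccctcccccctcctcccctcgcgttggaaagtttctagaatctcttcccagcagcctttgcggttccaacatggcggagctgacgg
Igf2bp2: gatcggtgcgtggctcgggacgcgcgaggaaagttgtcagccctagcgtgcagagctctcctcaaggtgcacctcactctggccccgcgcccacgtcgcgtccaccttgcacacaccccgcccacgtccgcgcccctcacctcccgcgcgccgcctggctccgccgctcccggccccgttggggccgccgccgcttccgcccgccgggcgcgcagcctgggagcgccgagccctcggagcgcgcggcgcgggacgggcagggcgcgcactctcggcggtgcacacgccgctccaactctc
Cnot6l: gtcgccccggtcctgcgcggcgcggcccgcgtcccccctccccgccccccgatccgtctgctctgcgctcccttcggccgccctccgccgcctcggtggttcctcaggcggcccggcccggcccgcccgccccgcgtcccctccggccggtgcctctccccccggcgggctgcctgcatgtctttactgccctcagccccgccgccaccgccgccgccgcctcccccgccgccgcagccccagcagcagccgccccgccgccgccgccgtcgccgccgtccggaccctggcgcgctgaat
Smg1: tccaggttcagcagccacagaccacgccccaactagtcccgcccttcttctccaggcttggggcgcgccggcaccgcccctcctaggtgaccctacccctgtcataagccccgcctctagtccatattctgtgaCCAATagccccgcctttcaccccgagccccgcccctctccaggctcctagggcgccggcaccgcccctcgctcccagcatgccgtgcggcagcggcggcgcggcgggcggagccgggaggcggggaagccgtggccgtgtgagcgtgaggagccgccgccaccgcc
The Cnot6l region is the most upstream of its 3 listed starts. These regions were rich in G and C, at 76.3% for Fxr1, 76.7% for Igf2bp2, 82.7% for Cnot6l and 72.0% for Smg1. A search for CCAAT on either strand (CCAAT or ATTGG) found it in 17 of the 63 listed promoters of members (27.0%), against 12289 of all 32851 promoters of the same length (37.4%). These 63 promoters belonged to 46 of the 53 members. In Smg1 the box began 116 bases before the start (position -116), and of the 7 members with a changed level that have an entry, Smg1 and G3bp2 held a box. The G3bp2 box lay at 1 of its 3 listed starts. A match is a description of these letters and not a binding site.

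The targeted gene was lower in every siYBX1 library. Ybx1 stood at 59.3, 67.9 and 61.3 FPKM (fragments per kilobase of gene model, scaled to the library total) in siYBX1, against 135, 134 and 129.6 FPKM in siNC, so 47.3% of the control level remained. Its log2 fold change was -1.07 (95% interval -1.20 to -0.94, adjusted p = 3.98e-06, limma), and fold changes throughout are siYBX1 minus siNC on log2(FPKM + 1). Library totals recovered from the FPKM steps were 31957411 to 35410308 reads in siYBX1 and 34207232 to 35299269 reads in siNC. Replicate 1 of siNC stood apart from the other siNC libraries, with a chi-square per gene of 21.6 and 25.2 against them, while these 2 differed by 4.85 and siYBX1 libraries by 8.92 to 11.8.

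After knockdown of Ybx1 the mRNA levels of the decay and granule genes, on the FPKM scale, were close to control, with small shifts in a minority of them. Proteins, granules and decay activity are not covered by these data. In the limma test, with a Benjamini-Hochberg adjusted p below 0.05 as threshold, 2 members rose (Igf2bp2 and Fxr1) and 6 fell (Cnot6l, Xrn1, Dcp2, Edc3, Smg1 and G3bp2). The remaining 44 of the 52 tested members were not called. The count of falls was 2 without siYBX1 replicate 1 or siNC replicate 2 and 1 without siYBX1 replicate 2 or siNC replicate 3, while at least 2 rises were called in each case. The called share was 15.4% of members, against 20.6% of all 10341 genes tested. That order turned under some alternatives, with 21.2% of members against 19.8% of all genes after scaling to TPM. With voom, limma's test on the recovered reads, it was 21.2% against 20.3%. The shares were 7.69% against 7.56% without the filter on low values, and 17.3% against 16.5% without siYBX1 replicate 3. Split by direction, 9.54% of all genes tested rose and 11.1% fell. Scaling to TPM moved that balance, with 646 genes higher and 1566 lower in place of 987 and 1145, so directions here are relative to the FPKM scaling. The median size of the log2 change was 0.069 over members and 0.11 over all genes tested, and each of the 52 members had a 95% interval that lay within -0.41 and 0.46. Negative changes numbered 34 and positive ones 18 (5458 and 4883 over all genes tested), with a median of -0.034 against -0.011 over all genes. By class, the median was -0.070 for deadenylation, 0.029 for poly(A) binding, -0.064 for decapping and 5′ decay, -0.012 for nonsense-mediated decay, -0.034 for granule and RNA-binding proteins and -0.0088 for miRNA effectors. The siYBX1 and siNC libraries did not overlap for 16 members, against 40.9% of all genes tested. At an unadjusted p below 0.05 were 13 members, against 36.3% of all genes tested. Igf2bp3 failed the filter of a mean of 1 FPKM, with 0, 5 and 8 reads in siYBX1 and 3, 1 and 5 reads in siNC.

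**Figure D1:**
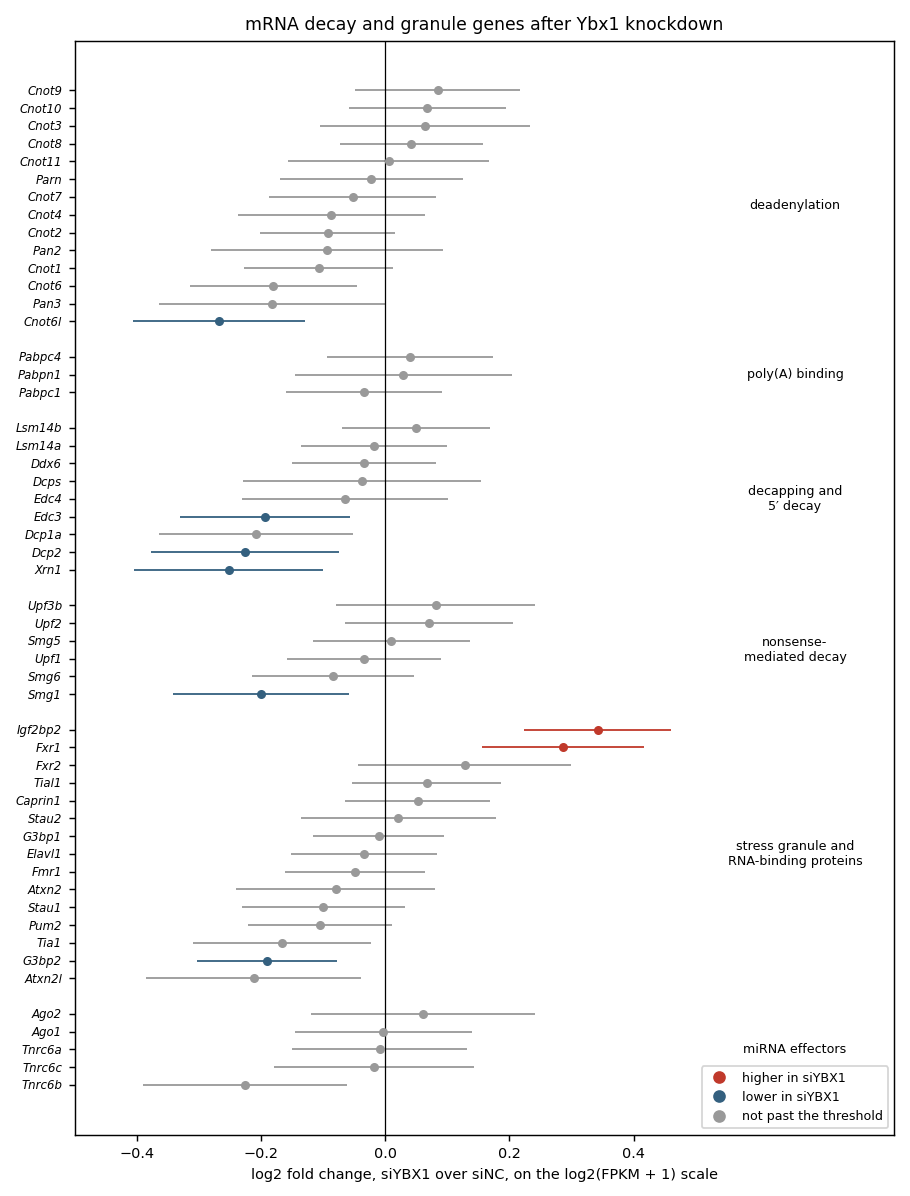
Log2 fold change (siYBX1 minus siNC, log2(FPKM + 1) scale) of the 52 tested members with 95% intervals, grouped by class; coloured points passed the limma test. Igf2bp2 at 0.34 and Fxr1 at 0.29 lie farthest to the right and Cnot6l at -0.27 farthest to the left, and most other intervals reach 0.

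Among stress granule and other RNA-binding proteins, both called rises were seen, together with 1 fall. Igf2bp2, which binds mRNAs such as that of the growth factor IGF2 and is known to protect targets from decay, had 36.7, 35.2 and 37.4 FPKM in siYBX1, against 30.0, 27.7 and 27.8 FPKM in siNC. Every siYBX1 library was above every siNC library. Its mean was 36.4 ± 1.11 FPKM in siYBX1 and 28.5 ± 1.30 FPKM in siNC (SD, n = 3 each), 27.6% higher, with a log2 fold change of 0.34 ± 0.05 (SE) and an adjusted p of 0.00217 (limma). Fxr1, a paralog of the fragile X protein FMR1 that takes part in translational control, had 50.4, 50.4 and 48.2 FPKM in siYBX1, against 37.9, 43.6 and 40.4 FPKM in siNC. The groups did not overlap, and the siYBX1 mean was 22.3% higher (log2 fold change 0.29 ± 0.06, SE, adjusted p = 0.00806, limma). G3bp2, which with G3bp1 nucleates stress granules, had 52.4, 48.5 and 49.5 FPKM in siYBX1, against 56.1, 57.7 and 58.1 FPKM in siNC. It was lower in all 3 siYBX1 libraries and fell by 12.5% (log2 fold change -0.19 ± 0.05, SE, adjusted p = 0.0246, limma). That call was lost without siYBX1 replicate 2 or 3 or siNC replicate 2 or 3, with adjusted p of 0.0642 to 0.0957 (limma) and log2 fold changes of -0.19 to -0.17.

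Other granule proteins gave intervals that include 0 or missed the threshold. G3bp1 had 54.4, 55.8 and 53.3 FPKM in siYBX1, against 54.1, 54.8 and 55.8 FPKM in siNC, and the groups overlapped. Caprin1, a partner of the G3BP proteins and the most abundant gene of this class, had 99.5, 90.6 and 96.6 FPKM in siYBX1, against 91.3, 93.1 and 91.8 FPKM in siNC, with an interval of -0.064 to 0.17 for its log2 change. Fmr1 averaged 35.9 ± 0.744 FPKM in siYBX1 and 37.2 ± 1.41 FPKM in siNC, and Fxr2, the remaining paralog, had 21.1, 24.0 and 23.3 FPKM in siYBX1, against 23.4, 19.0 and 20.1 FPKM in siNC. Each of these 4 overlapped between groups, and Fxr2 passed without siNC replicate 1 (0.21, adjusted p = 0.0388, limma). Atxn2l, an ataxin-2 paralog found in stress granules, had 17.8, 17.2 and 18.0 FPKM in siYBX1, against 23.8, 18.9 and 19.6 FPKM in siNC. Its change of -0.21 missed the threshold (adjusted p = 0.0776, limma) and passed without siNC replicate 2 (-0.27, adjusted p = 0.0421, limma). Tia1, which promotes granule assembly and translational silencing, had 16.3, 17.0 and 17.9 FPKM in siYBX1, against 17.7, 20.3 and 19.9 FPKM in siNC. These groups overlapped, and the change of -0.17 had an adjusted p of 0.0917 (limma), or 0.0187 without siNC replicate 1, where it was -0.23, and 0.0403 with TPM. The AU-rich element binder Elavl1 lay at 11.1 ± 0.144 FPKM in siYBX1 and 11.4 ± 0.345 FPKM in siNC. Tial1, the paralog of Tia1, had 8.90, 8.85 and 8.77 FPKM in siYBX1, against 8.62, 8.19 and 8.39 FPKM in siNC, and was not called, although its groups did not overlap. Atxn2, the paralog of Atxn2l, had 6.57, 6.66 and 7.38 FPKM in siYBX1, against 8.05, 6.82 and 7.11 FPKM in siNC, with overlap. Stau1 and Stau2, which bind double-stranded RNA, and Pum2, which binds 3′ UTR motifs, had log2 changes between -0.11 and 0.021 and were not called.

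**Figure D2:**
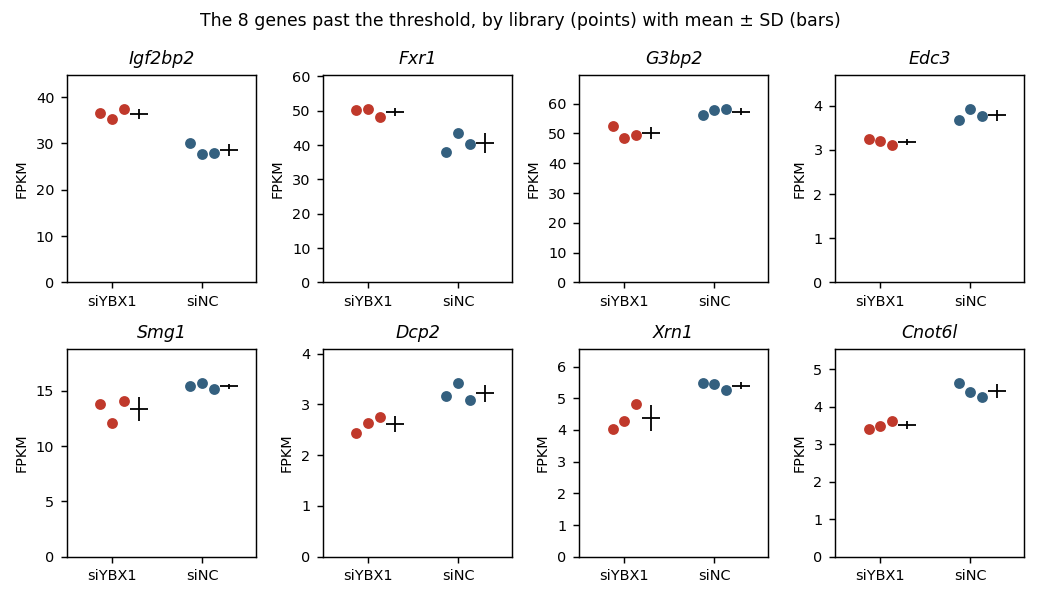
FPKM in each library for the 8 called members, siYBX1 left of siNC in each panel, with a cross for the mean ± SD. In each panel the siYBX1 and siNC points do not overlap, as for Igf2bp2 at 35.2 to 37.4 FPKM in siYBX1 and 27.7 to 30.0 FPKM in siNC.

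Decapping and 5′ decay genes held 3 of the 6 falls, and 8 of the 9 had negative changes. Over all 10341 genes tested 11.1% fell and 5458 had negative changes. After the correction for gene length described below, 0 genes of this class were called lower. Ddx6 was then at 0.028, Lsm14a at 0.0034 and Lsm14b at 0.070, with the others negative. Xrn1, the 5′ to 3′ exonuclease, had 4.03, 4.28 and 4.81 FPKM in siYBX1, against 5.47, 5.44 and 5.27 FPKM in siNC. It was lower in all siYBX1 libraries and fell by 18.8% (log2 fold change -0.25 ± 0.07, SE, adjusted p = 0.0268, limma). Dcp2, the decapping enzyme, had 2.44, 2.64 and 2.76 FPKM in siYBX1, against 3.17, 3.41 and 3.09 FPKM in siNC. Again the groups were apart (log2 fold change -0.23 ± 0.07, SE, adjusted p = 0.0400, limma). Edc3, an enhancer of decapping and scaffold of processing bodies, had 3.25, 3.20 and 3.10 FPKM in siYBX1, against 3.67, 3.92 and 3.76 FPKM in siNC. Its groups did not overlap either, and the adjusted p of 0.0493 (limma) was just under the threshold, at a change of -0.19 ± 0.06 (SE).

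Xrn1 was no longer called without siYBX1 replicate 1 or 2 or siNC replicate 2 or 3, with adjusted p of 0.0598 to 0.0972 (limma) and log2 changes of -0.27 to -0.21. The call of Dcp2 was lost when any library other than siYBX1 replicate 3 was left out (adjusted p 0.0570 to 0.128, limma, changes of -0.25 to -0.19). That of Edc3 was lost when any of the 6 was left out (adjusted p 0.0578 to 0.136, limma, changes of -0.21 to -0.17). The direction was negative throughout. Dcp1a, the activating partner of Dcp2, had 4.46, 4.65 and 5.14 FPKM in siYBX1, against 6.04, 5.29 and 5.60 FPKM in siNC. Its groups did not overlap, and its change of -0.21 missed the threshold (adjusted p = 0.0609, limma), but passed without siYBX1 replicate 3 (-0.26, adjusted p = 0.0468, limma) and with voom (0.0410). Ddx6, the helicase that links deadenylation to decapping and the most abundant gene of this class, had 34.1, 31.5 and 33.6 FPKM in siYBX1, against 32.9, 34.9 and 33.7 FPKM in siNC. The groups overlapped, as they did for the scaffold Edc4 (11.4 ± 0.464 FPKM in siYBX1, 12.0 ± 1.32 FPKM in siNC), the scavenger enzyme Dcps, and Lsm14a and Lsm14b, which bind Ddx6. Summed over its 9 genes, this class reached 111.2 to 114.6 FPKM in siYBX1 libraries and 117.1 to 118.5 FPKM in siNC libraries. The sums of 2 other classes did not overlap either, at 176.2 to 180.3 FPKM in siYBX1 and 183.0 to 186.6 FPKM in siNC for deadenylation, and at 60.1 to 62.9 FPKM in siYBX1 and 63.4 to 64.4 FPKM in siNC for nonsense-mediated decay. Sums over all 16423 genes did not overlap in the opposite direction, at 411672 to 424597 FPKM in siYBX1 and 395872 to 409241 FPKM in siNC. Over all 53 members the sums overlapped, at 1349.4 to 1392.1 FPKM in siYBX1 and 1371.1 to 1410.4 FPKM in siNC.

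In the deadenylation machinery 1 of 14 genes was called. Cnot6l, a catalytic deadenylase subunit of CCR4-NOT, had 3.40, 3.49 and 3.61 FPKM in siYBX1, against 4.62, 4.38 and 4.26 FPKM in siNC. Every siYBX1 library lay below every siNC library. It fell by 20.8% (log2 fold change -0.27 ± 0.06, SE, 95% interval -0.41 to -0.13, adjusted p = 0.0138, limma). Its paralog Cnot6, a deadenylase of the same kind, had 10.3, 9.85 and 10.9 FPKM in siYBX1, against 11.3, 12.3 and 12.1 FPKM in siNC. The groups were apart, yet its change of -0.18 missed the threshold (adjusted p = 0.0588, limma) and passed without siNC replicate 1 (-0.22, adjusted p = 0.0333, limma), with TPM (0.0319) and with voom (0.0377). Cnot7 and Cnot8, the other pair of catalytic subunits, overlapped between groups, at 12.7 ± 0.359 and 13.4 ± 0.343 FPKM in siYBX1 and 13.2 ± 0.910 and 13.0 ± 0.237 FPKM in siNC. Cnot1, the scaffold of the complex and the most abundant of these genes, had 41.9, 37.5 and 40.6 FPKM in siYBX1, against 43.8, 42.5 and 43.0 FPKM in siNC. Its groups did not overlap, but its change of -0.11 was not called (adjusted p = 0.183, limma). Cnot2, a structural subunit, likewise stood at 27.4 ± 0.535 FPKM in siYBX1 and 29.3 ± 0.704 FPKM in siNC without a call. Pan3, the adaptor of the first deadenylase, averaged 2.78 ± 0.406 FPKM in siYBX1 and 3.28 ± 0.119 FPKM in siNC, and its catalytic partner Pan2 3.08 ± 0.234 and 3.36 ± 0.449 FPKM. Both overlapped between groups, and Pan3 passed without siYBX1 replicate 3 (-0.27, adjusted p = 0.0406, limma). The nuclease Parn and the remaining CCR4-NOT genes Cnot3, Cnot4, Cnot9, Cnot10 and Cnot11 had changes between -0.087 and 0.085 and overlapped between groups.

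Poly(A)-binding genes gave no call by limma, 0 at an unadjusted p below 0.05 and 0 by voom. Pabpc1, the main cytoplasmic poly(A)-binding protein and the most abundant of all members, had 516, 501 and 521 FPKM in siYBX1, against 533, 532 and 510.1 FPKM in siNC. Its libraries overlapped between groups, and the interval of its change was -0.16 to 0.092. Pabpc4, its less abundant cytoplasmic paralog, averaged 12.4 ± 0.527 FPKM in siYBX1 and 12.0 ± 0.684 FPKM in siNC. Pabpn1, the nuclear form, averaged 3.34 ± 0.414 FPKM in siYBX1 and 3.24 ± 0.158 FPKM in siNC, with only 181 to 242 reads per library.

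Of the 6 nonsense-mediated decay genes, Smg1 fell. Smg1, the kinase that phosphorylates UPF1, had 13.8, 12.1 and 14.1 FPKM in siYBX1, against 15.4, 15.7 and 15.2 FPKM in siNC. All siYBX1 libraries were below all siNC libraries, and replicate 2 was the lowest of them. The log2 fold change was -0.20 ± 0.06 (SE) with an adjusted p of 0.0490 (limma). The call was lost when any library other than siYBX1 replicate 3 was left out (adjusted p 0.0661 to 0.166, limma), and without siYBX1 replicate 2 the change was -0.14. Upf1, the central helicase of this pathway, averaged 13.6 ± 0.710 FPKM in siYBX1 and 14.0 ± 0.120 FPKM in siNC. The endonuclease Smg6 averaged 8.26 ± 0.250 and 8.82 ± 0.416 FPKM, and the adaptors Smg5, Upf2 and Upf3b had changes of 0.010 to 0.081. These 5 overlapped between groups and were not called.

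None of the 5 miRNA effectors passed the limma test, and 1 had an unadjusted p below 0.05. That gene, Tnrc6b, which bridges Argonaute proteins to CCR4-NOT, had 7.06, 6.16 and 7.70 FPKM in siYBX1, against 8.33, 8.46 and 8.09 FPKM in siNC. The groups did not overlap, and the change of -0.23 had an adjusted p of 0.0543 (limma), or 0.0304 without siYBX1 replicate 3, where it was -0.29. It also passed with TPM (0.0391), with voom (0.0194) and with a filter of 5 FPKM (0.0497). Its paralog Tnrc6a had 10.1, 9.15 and 10.7 FPKM in siYBX1, against 10.2, 10.1 and 9.81 FPKM in siNC, and Tnrc6c averaged 3.04 ± 0.299 and 3.08 ± 0.124 FPKM. Ago2, the slicing Argonaute and the most abundant of the class, had 15.4, 13.4 and 16.7 FPKM in siYBX1, against 15.7, 14.0 and 13.7 FPKM in siNC. Ago1 averaged 7.02 ± 0.441 FPKM in siYBX1 and 7.04 ± 0.310 FPKM in siNC. All 4 overlapped between groups.

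Several members are paralogs with related functions, and 12 such pairs were compared by the log2 ratio of their FPKM + 1 within each library. The G3bp1 to G3bp2 ratio was 0.052, 0.20 and 0.10 in siYBX1, against -0.053, -0.073 and -0.059 in siNC. G3bp1 therefore had the higher FPKM of the pair in each siYBX1 library and G3bp2 in each siNC library. That order rests on gene models of 3138 bases for G3bp1 and 4923 bases for G3bp2. By reads G3bp2 was the higher in every library. It had 8126 to 8453 reads in siYBX1 and 9614 to 10105 in siNC, against 5455 to 6199 and 5885 to 6177 for G3bp1. Only the shift of the ratio between groups is read here. Tnrc6a to Tnrc6b gave 0.46, 0.50 and 0.42 in siYBX1, against 0.26, 0.23 and 0.25 in siNC. The Tia1 to Tial1 ratio was lower in siYBX1 (difference -0.23), at a mean of 0.88 in siYBX1 and 1.11 in siNC. For these 3 pairs, and for Atxn2 to Atxn2l (difference 0.13) and Lsm14a to Lsm14b (-0.067), the groups did not overlap. In an exact two-sided permutation test each had p = 0.1, the smallest that 3 against 3 allows, and 0.2 when adjusted over the 12 pairs. Nothing is read from Igf2bp2 to Igf2bp3, because Igf2bp3 had 0 to 8 reads. On FPKM + 1 that ratio did not overlap between groups (difference 0.33) and follows Igf2bp2 alone, while the ratio of mean FPKM was 1630.3 in siYBX1 and 1893 in siNC, the opposite direction. The remaining 6 pairs overlapped between groups, with exact p of 0.2 to 0.5. Cnot6 to Cnot6l was one of them, at a mean log2 ratio of 1.34 in siYBX1 and 1.25 in siNC. So was Fxr1 to Fxr2, at 1.09 in siYBX1 and 0.93 in siNC, where siNC replicate 1 was the lowest at 0.67 and siNC replicate 2 reached 1.15. How reads shared between near-identical genes were counted is not described in the labels, so these ratios carry that uncertainty.

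Levels of the members spanned a wide range. FPKM is per length of the gene model, so the order of levels between genes, here and above, depends on these models. Pabpc1 led at 512 FPKM in siYBX1 and 525 FPKM in siNC, with Caprin1 next. G3bp1 followed at 54.5 ± 1.25 FPKM in siYBX1 and 54.9 ± 0.842 FPKM in siNC. The decapping enzyme Dcp2 was among the least abundant, at 2.61 ± 0.163 FPKM in siYBX1 and 3.22 ± 0.167 FPKM in siNC. Cnot4, a ubiquitin ligase subunit of CCR4-NOT, had the lowest FPKM of the tested members, at 2.03 ± 0.120 FPKM in siYBX1 and 2.21 ± 0.0950 FPKM in siNC. Its gene model is long, at 23117 bases, and it had 1421 to 1879 reads per library. Pabpn1, with a higher FPKM, had 181 to 242 reads on a model of 1793 bases. Igf2bp2 and Igf2bp3, RNA-binding paralogs, lay at opposite ends, since Igf2bp3 did not exceed 0.0422 FPKM in any siYBX1 library or 0.0249 FPKM in any siNC library. Each of the 4 called members with a level under 6 FPKM fell, while those above 25 FPKM comprised both rises and the fall of G3bp2, and Smg1 lay between these.

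**Figure D3:**
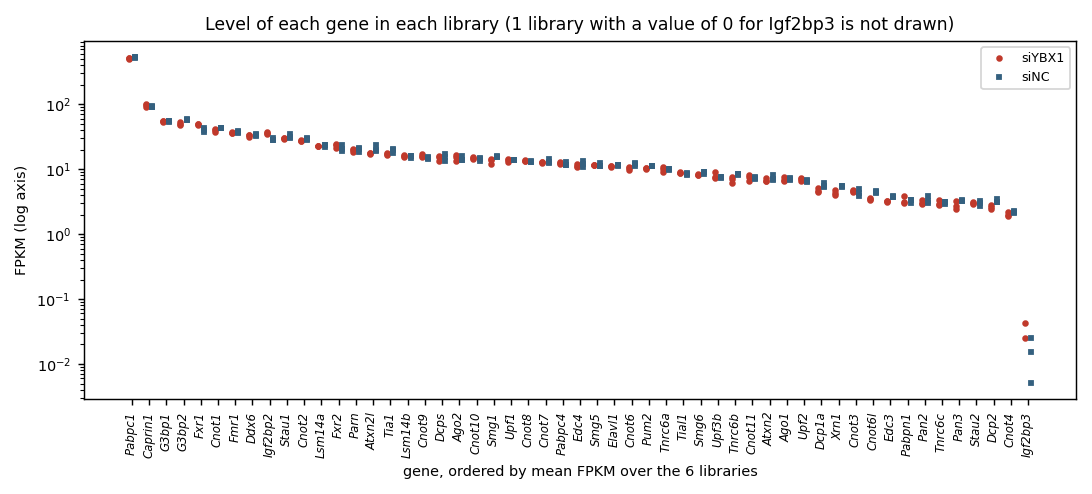
FPKM of the 53 members in each siYBX1 library (circles) and siNC library (squares) on a log axis, ordered by mean level from left to right. Pabpc1 stands above 500 FPKM in every library and Igf2bp3 below 0.1 FPKM, with 1 siYBX1 library at 0 not drawn, and the siYBX1 and siNC points lie close together for most genes.

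The members are long genes, and gene length moved with the fold changes. Their median gene model length was 5860.5 bases, against 3437 bases over all genes tested, and 23 of the 52 (44.2%) lay in the top length class when all genes tested were put in 5 equal classes. Over all genes tested the median log2 change went down along the 5 length classes, at 0.079, 0.011, -0.014, -0.036 and -0.067 from the shortest to the longest. The share called lower was 6.23% in the shortest class and 14.4% in the longest. Members followed this order. The 17 members of 8000 bases or more had a median of -0.094, with 4 called lower and 0 higher, and the 15 under 4000 bases a median of 0.0053, with 0 lower and 2 higher. As a description, Spearman's rho between length and log2 change was -0.39 over the 52 members and -0.27 over all genes tested, where genes share the same 6 libraries. After a loess curve of length was subtracted from each library, Fxr1 (0.30), Igf2bp2 (0.36) and Cnot6l (-0.20, adjusted p = 0.0268, limma) were still called. Xrn1 (-0.18, adjusted p = 0.0506, limma), Dcp2 (-0.16), Edc3 (-0.14), Smg1 (-0.12) and G3bp2 (-0.15) kept their sign and were not called, and the median of members was -0.0020 with 27 of 52 negative.

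**Figure D4:**
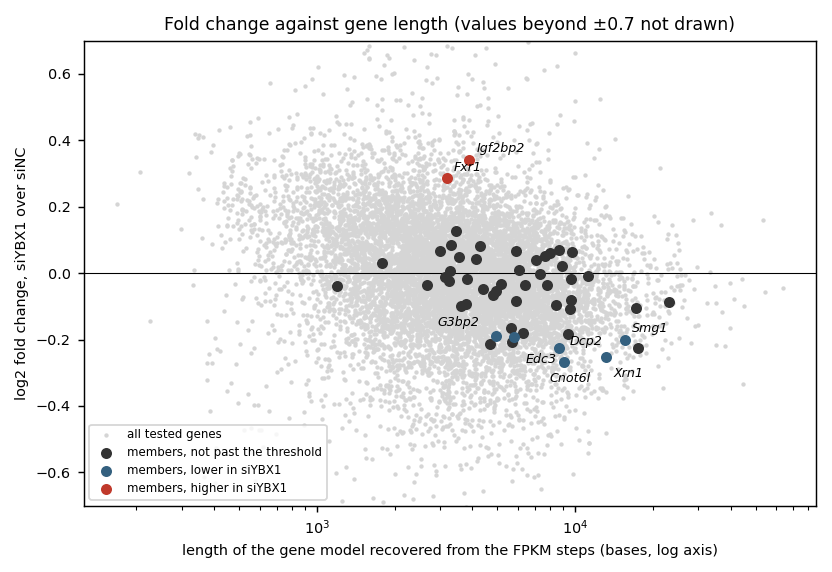
Log2 fold change (siYBX1 over siNC) against gene model length in bases on a log axis, for all genes tested (grey dots, those beyond 0.7 in either direction not drawn) and the 52 tested members (large points, coloured where called). The 2 rises lie at 3177 and 3899 bases, while Smg1 (15615 bases), Xrn1 (13210 bases), Cnot6l (9042 bases) and Dcp2 (8643 bases) lie to the right, below 0.

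Across 14 other ways of processing, Igf2bp2 rose in each, with log2 changes of 0.30 to 0.38 and adjusted p of 0.000600 to 0.0138 (limma). Fxr1 rose in each as well, at 0.24 to 0.34 with adjusted p of 0.00343 to 0.0354 (limma). Cnot6l fell in all 13 that tested it, at -0.35 to -0.20 with adjusted p of 0.00352 to 0.0494 (limma). The other 5 falls were called less often, G3bp2 in 8 of 14, Xrn1 in 6 of 13, Smg1 in 5 of 14, Dcp2 in 4 of 13 and Edc3 in 2 of 13. Without siNC replicate 1, the library that stood apart, 3 members were higher (Igf2bp2, Fxr1 and Fxr2) and 5 lower (Cnot6, Cnot6l, Xrn1, G3bp2 and Tia1).

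**Figure D5:**
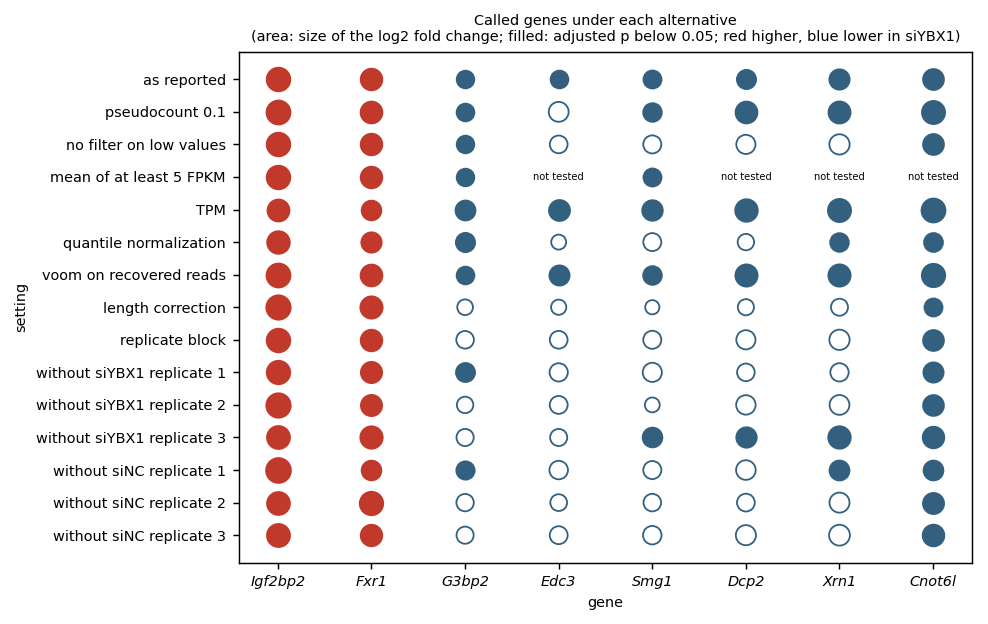
Each of the 8 called members (columns) under the reported processing and each alternative (rows), with circle area for the size of the log2 fold change, red for higher and blue for lower in siYBX1, and filled circles for adjusted p below 0.05 (limma). Igf2bp2, Fxr1 and Cnot6l are filled in every setting that tested them, while Edc3 is filled in 2 of 13 alternatives.

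The wider machinery, on 6 lists of other genes of these pathways, also gave few calls. Of 90 tested genes, 5 rose and 6 fell (12.2%, against 20.6% of all genes tested), with a median log2 change of -0.010. These counts were 1 to 5 rises and 1 to 5 falls when single libraries were left out. None of the 18 genes of the exosome and SKI complex, which degrade mRNA from the 3′ end, was called, nor any of 13 other nonsense-mediated decay and exon junction factors, with 3 and 2 at an unadjusted p below 0.05 and 0 in either list by voom. Decay adaptors and AU-rich element binders had 2 rises and 3 falls among 17 genes. Zfp36, which recruits deadenylases to AU-rich elements, averaged 9.41 ± 0.392 FPKM in siYBX1 and 7.42 ± 0.355 FPKM in siNC (log2 fold change 0.31, adjusted p = 0.00670, limma) and was called under all 14 alternatives. Samd4, a Smaug protein that represses mRNAs, rose by 0.25 (adjusted p = 0.0347, limma). Khsrp, an AU-rich element binder, averaged 16.2 ± 0.514 FPKM in siYBX1 and 20.3 ± 2.11 FPKM in siNC (-0.30, adjusted p = 0.0155, limma). The endonuclease Zc3h12a changed by -0.25 (adjusted p = 0.0375, limma). The remaining fall on this list was Rc3h2.

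Other stress granule and mRNP proteins had 2 rises and 2 falls among 21 genes. Ybx3, the cold-shock domain paralog of Ybx1, averaged 103 ± 5.16 FPKM in siYBX1 and 88.9 ± 7.39 FPKM in siNC (log2 fold change 0.22, adjusted p = 0.0421, limma). Serbp1, an mRNA- and ribosome-binding protein, averaged 65.7 ± 4.83 FPKM in siYBX1 and 55.3 ± 2.71 FPKM in siNC (0.24, adjusted p = 0.0214, limma). Usp10, a deubiquitinase that binds G3BP proteins, changed by -0.24 (adjusted p = 0.0468, limma), and Ythdf3, a reader of m6A, fell too. Limd1, an Argonaute-binding processing body protein, was the called gene of the 8 on the miRNA list, at 6.15 ± 0.592 FPKM in siYBX1 and 7.83 ± 0.397 FPKM in siNC (-0.31, adjusted p = 0.0148, limma). Lsm4, of the ring that binds the 3′ ends of deadenylated mRNAs, was the 1 rise among 13 other decapping factors. Other than Zfp36, these calls were lost without 1 or more single libraries. Limd1 missed the threshold without siYBX1 replicate 1 or siNC replicate 3 (adjusted p 0.0541 to 0.0576, limma), Khsrp without siYBX1 replicate 1 or 3 (0.0525 to 0.0535) and Ythdf3 without siYBX1 replicate 1 (0.0748). Serbp1 and Lsm4 missed it without siYBX1 replicate 1 or 2 or siNC replicate 3 (0.0551 to 0.0881 and 0.103 to 0.128). Ybx3 did so without siYBX1 replicate 1 or 2 or siNC replicate 2 or 3 (0.120 to 0.139), and Rc3h2 without siYBX1 replicate 2 or 3 or siNC replicate 2 or 3 (0.0624 to 0.0816). Usp10 was not called without siYBX1 replicate 1 or 3 or siNC replicate 1 or 3 (0.106 to 0.154). Zc3h12a and Samd4 lost their calls when any library other than siNC replicate 1 was left out (0.0567 to 0.127 and 0.0662 to 0.125).

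Markers of cell state moved between the same libraries. Of 10 mitosis markers 9 were called lower, and their summed level was 191.8 to 214.5 FPKM in siYBX1 and 267.7 to 274.6 FPKM in siNC. Of 9 smooth muscle and myofibroblast markers 7 were tested and 5 rose. The summed level of the 9 was 2052 to 2155 FPKM in siYBX1 and 608 to 675 FPKM in siNC. Most of it was Acta2, which averaged 1671 FPKM in siYBX1 and 518 FPKM in siNC. Smtn (-0.11) and Des (-0.13) were not called, and the smooth muscle markers Cnn1 and Myh11 stood near 0. None of 7 tested adipocyte markers was called by limma (2 at an unadjusted p below 0.05, and Plin1 lower by voom), and the adipocyte hormone gene Adipoq was abundant, at 566 to 607 FPKM in siYBX1 and 468 to 707 FPKM in siNC. Cebpa, on the same list, averaged 0.40 FPKM over the 6 libraries and failed the filter. Among brown adipocyte markers Cidea was present at 16.5 to 22.0 FPKM in siYBX1 and 19.1 to 23.2 FPKM in siNC, while Elovl3 and Prdm16 were at or near 0. Cox8b averaged 134 FPKM in siYBX1 and 113 in siNC, and Cox7a1 19.3 and 17.9, while Ppargc1a (0.67) and Dio2 (0.28) failed the filter. Of 6 progenitor markers 3 were tested and 0 called (2 at an unadjusted p below 0.05). Ly6a averaged 449 FPKM in siYBX1 and 491 in siNC, Pdgfra 22.1 and 22.9, and Pdgfrb 34.0 and 37.4, while Cd34 and Thy1 failed the filter. Of 6 macrophage markers Adgre1, Ptprc, Itgam and Csf1r were at or near 0 and 2 were tested, with a summed level of 11.3 to 17.2 FPKM in siYBX1 and 15.9 to 29.5 FPKM in siNC. Cd68, a lysosomal macrophage marker, had 6.80, 9.47 and 11.1 FPKM in siYBX1, against 24.3, 10.8 and 12.8 FPKM in siNC. It overlapped between groups and was not called by limma (-0.69, adjusted p = 0.0681), but was lower by voom, and Cd14 had 4.45 to 6.60 FPKM in siYBX1 and 5.03 to 6.02 FPKM in siNC. Of 4 endothelial markers in the table Pecam1, Kdr and Tek were at or near 0, while Egfl7 had 16.1 to 18.1 FPKM in siYBX1 and 16.7 to 21.7 FPKM in siNC and was not called. The part of these shifts in the members' changes was not tested, and in bulk RNA fewer cells of a type and less RNA per cell cannot be told apart.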

How the data were processed

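Total RNA was extracted with Trizol and made into VAHTS Universal V5 libraries, per the labels' protocols. Tools named in the submitters' processing notes are fastp, HISAT2 and HTSeq, beside the build GRCm39, without versions or roles. The authors deposited 1 table of FPKM values for 16423 gene symbols, whose columns con and si with numbers 1 to 3 were matched to siNC and siYBX1 by name. Strandedness and the counting of reads shared between similar genes are not given in the sources used here, so paralogs, genes with pseudogenes and genes with antisense partners are uncertain.

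Whole reads were recovered from the deposited FPKM steps for all 16423 genes (100% of values, within 0.02 reads). Library totals came from 323 genes whose exon length in GENCODE vM21 matched, and gene lengths are the smallest whole lengths that fit. On a gene of 2 kb, 1 read is worth 0.0141 to 0.0156 FPKM, which limits low values. Genes averaging 1 FPKM or more were tested on log2(FPKM + 1) by limma 3.58.1 (R 4.3.3) with its trend option and no covariates, two-sided, at a Benjamini-Hochberg adjusted p below 0.05 over all 10341 genes tested. Such fold changes understate the change of low genes, and percent differences are of mean FPKM. Scripts were tested on simulated data. They used Python 3.11.15, matplotlib 3.10.9, scipy 1.17.1, pandas 2.3.3 and numpy 2.4.6.

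The members, the lists and the tests were chosen with earlier results of these data known. All 53 members were accounted for. Per-library values, or means ± SD for some paralog partners, are given for called members, members with an adjusted p of 0.05 to 0.1, the most abundant of each class and paralog partners of these. From the wider lists the 4 called genes that rose most and the 4 that fell most were taken, and Lsm4, Ythdf3 and Rc3h2 were added after their values were seen. Promoters were matched to RefSeq (GRCm38.p6) by symbol, and no coordinates were converted between builds. Alternatives were a pseudocount of 0.1, no filter, a filter of 5 FPKM, TPM, quantile normalization, voom on the recovered reads (mean of at least 10), a loess correction for length (span 0.3), a replicate block and leaving out each library.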

Additional observations from a re-analysis of the deposited data

How the results depend on the processing

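Fxr1 and Igf2bp2 were called higher under all 14 alternatives and Cnot6l lower under the 13 that tested it (limma). The number of members called lower, 6 as reported, was 2 without the filter on low values, 3 with a filter of 5 FPKM, 3 with quantile normalization, 1 with the length correction, 9 with TPM, 9 with voom, 5 with a pseudocount of 0.1 and 1 to 7 when single libraries were left out. Members called higher numbered 2, or 3 without siNC replicate 1. The median change of members, -0.034 as reported, was -0.087 with TPM, where the median of all genes was -0.065. It was -0.0020 with the length correction and -0.056 to -0.019 when single libraries were left out. On the wider lists the rises, 5 as reported, were 1 without the filter, 2 with TPM and 1 to 5 without single libraries. The falls, 6 as reported, were 2 without the filter, 3 with quantile normalization and 1 to 5 without single libraries. Over all genes 2132 were called, 2466 with voom on the recovered reads, 1241 without the filter and 1201 to 2026 without single libraries.

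Replicate numbers are shared between the groups, and whether they pair the samples is not described in the labels. Same-numbered libraries did not deviate together from their group means (correlations -0.31, -0.13 and -0.25). Deviations of 3 libraries from their own mean sum to 0, so these values constrain each other and cannot decide whether the samples were paired. With a replicate block 1346 genes were called, 2 members higher and 1 lower, and on the wider lists 1 higher and 2 lower. Paralog pairs without overlap numbered 6 with that of Igf2bp2 and Igf2bp3, 5 with a pseudocount of 0.1 and 6 to 8 without single libraries, an alternative chosen after seeing the data.

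Signs turned in members that were not called. Caprin1 was at -0.025 and Tnrc6a at 0.0083 with quantile normalization. Ddx6 was at 0.028, G3bp1 at 0.0065 and Tnrc6a at 0.062 with the length correction. Without single libraries Ago2 ranged from -0.0085 to 0.14, G3bp1 from -0.027 to 0.0052 and Tnrc6a from -0.054 to 0.046. The cause of these changes was not tested. Of 470 single-gene comparisons over 34 genes, 343 kept direction and side of the threshold, 104 lost the call, 13 gained it and 10 turned sign. With 3 libraries per group an exact test of a single value cannot go below p = 0.1.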
